A study of Mus musculus with 30 samples.

Results

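The provisional matrix glycoproteins described here were 8 genes whose products are laid down by cells early in tissue repair: Fn1, Postn, Tnc, Tnn, Thbs1, Thbs2, Thbs4 and Sparc. The members were fixed by name, with earlier results of these data known. They were found in the count table by Ensembl identifier and made up 8 of 43629 genes. The study compared bone healing in Lean and diet-induced obese (DIO) mice by RNA-seq of the fracture callus, the tissue that bridges a broken bone. All animals were male C57BL/6J mice that received an open osteotomy of the right tibia at 20 weeks of age, stabilized with a nail in the marrow cavity. DIO mice were fed a high-fat diet from a young age and until harvest, and Lean mice a low-fat diet. The 30 libraries, each of 1 callus, came from 4 groups of 3 Lean mice (d3, d5, d7 or d10 post-fracture) and 6 groups of 3 DIO mice (the same days plus d14 or d21). Lean callus of d14 and d21 was not analysed here.

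After fracture, a fibrin clot is replaced by a loose matrix in which fibronectin assembles into fibrils and offers binding sites to integrins, the cell surface receptors for matrix. Matricellular glycoproteins such as the tenascins, thrombospondins, periostin and SPARC are then added; they build little of the tissue's bulk themselves but bind collagens, growth factors and receptors. In endochondral healing, this matrix gives way to cartilage and then to woven bone, and periosteum and fibrous tissue surround both. In bulk RNA, fewer cells of a type and less RNA per cell cannot be told apart.

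Total counts ran from 13247122 to 26365620 per library (median 16854427), and the lowest count of any member in any library was 185. Levels are given as CPM, read counts scaled to library size with the TMM factors of edgeR. Markers of chondrocytes (7 of 8 genes) and osteoblasts (7 of 7) had at least 3 counts in every library. The Lean d10 replicate 1 library stood apart from both other libraries of its group, with a TMM factor of 0.779, a chondrocyte marker sum of 58969 CPM against 12351 and 11092 CPM, and a skeletal muscle marker sum of 907 CPM against 12895 and 8857 CPM. DIO d7 replicate 2 had the lowest chondrocyte sum of its group (16083 CPM against 31479 and 36219.6 CPM), and DIO d21 replicate 2 had the highest muscle sum (11372 CPM against 326 and 2106 CPM). Where leaving out 1 of these libraries changed a call or the day of the highest mean of a member, the value without it is given.

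The members differed widely in abundance and followed different courses in time. Per kilobase of exon, Sparc, which encodes the collagen-binding bone protein SPARC (osteonectin), had the highest mean level of the 8 members in every group, from 2347 CPM per kilobase in DIO d3 to 8968 in Lean d10. Fn1, the gene of fibronectin, was next in Lean d5, d7 and d10 and in DIO d5 and d7, with 766 CPM per kilobase in DIO d7. Postn was next on d3 in both diets (151 in Lean and 178 in DIO), and Tnc was next in DIO d10, d14 and d21 (308, 269 and 165 CPM per kilobase). In DIO callus, the group mean of Fn1, Postn, Tnn, Thbs1, Thbs2 and Thbs4 was highest on d7, whereas that of Tnc and Sparc was highest on d10. They are called early and late members below, by their DIO means only, as the Lean mean of Fn1 was highest on d10. Without DIO d7 replicate 2, the highest DIO mean was on d7 for Fn1 and Thbs1 alone among the early members. It was then on d5 for Postn (2353 CPM against 1529 on d7), Tnn (437 against 436 CPM) and Thbs2 (405 against 374 CPM) and on d3 for Thbs4 (369 against 253 CPM). In Lean callus, the means of Postn, Tnn, Thbs1, Thbs2 and Thbs4 were highest on d5, and those of Fn1, Tnc and Sparc on d10, the last Lean day analysed.

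**Figure D1:**
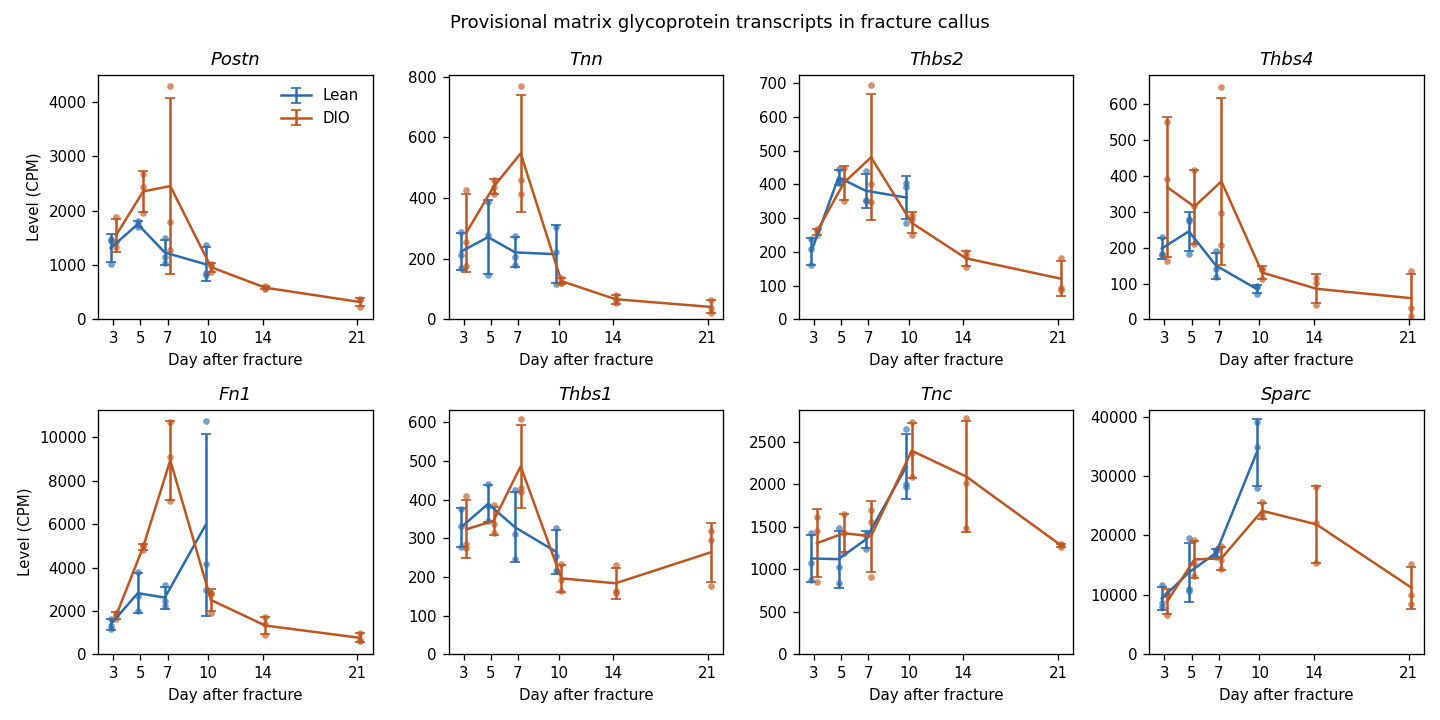
Level of each member (CPM, linear axis from 0) against day after fracture, with 1 point per mouse and lines through the means of 3 mice, bars showing 1 SD (Lean blue, DIO orange). DIO Fn1 rises to a mean of 8945 CPM on d7 and is at 756 CPM on d21, while Sparc and Tnc have their highest means on d10 in both diets.

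Over the 30 libraries, which share groups, day and diet and are therefore not independent points, log2 levels of Postn and Tnn had a Pearson r of 0.93, the highest of the 28 pairs of members. Fn1 and Thbs2 followed with 0.86, and Postn and Thbs4 with 0.85. Tnc and Sparc formed the other pair that moved together, with an r of 0.78, and their r with Postn was -0.14 and -0.06. Thbs1 was the loosest of the early members, with its highest r (0.64) to Tnn and its lowest (-0.46) to Tnc. These values describe the libraries and were not tested.

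**Figure D2:**
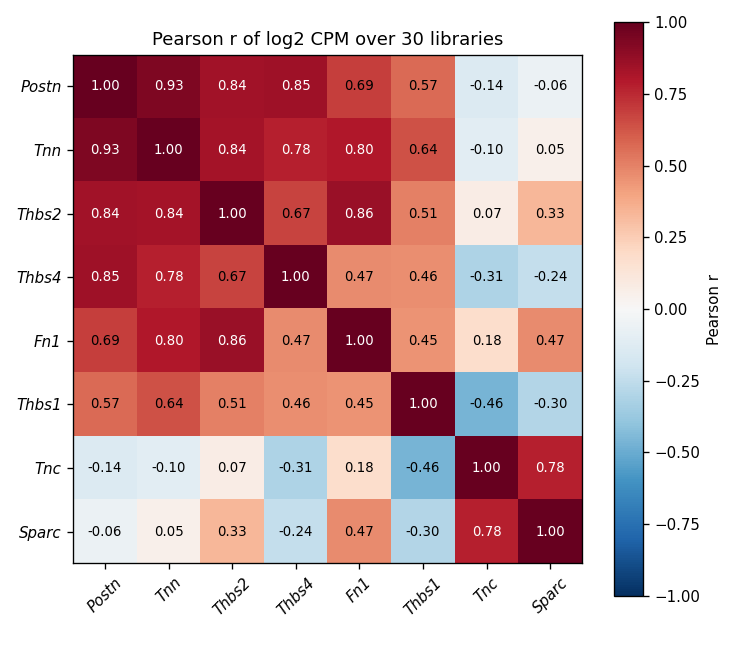
Pearson r of log2 CPM between each pair of members over 30 libraries (color scale from -1 to 1, value in each cell). Postn, Tnn, Thbs2 and Thbs4 hold r values from 0.67 to 0.93 among themselves, and Tnc and Sparc have an r of 0.78 with each other.

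Fibronectin is the main fibril-forming glycoprotein of the early repair matrix, and its gene Fn1 (ENSMUSG00000026193, chr1:71585520-71653200, minus strand, GRCm38) had the largest diet difference of the members on d7. In Lean callus, Fn1 was at 1647, 1152 and 1319 CPM on d3 in replicates 1, 2 and 3, and at 1983, 2687 and 3782 CPM on d5. Lean d7 libraries had 2459.5, 2202 and 3179.9 CPM, and Lean d10 libraries 10751, 2940.0 and 4182 CPM. All d5 mice were above all d3 mice, d5 and d7 overlapped, and on d10 replicate 1 was far above the others while replicate 2 lay within the d7 range. The levels differed between Lean days (edgeR quasi-likelihood test of any day, adjusted p = 0.0207), but no step between successive Lean days passed (d5 against d3 1.06 ± 0.42 SE, adjusted p = 0.258; d10 against d7 1.20 ± 0.42 SE, adjusted p = 0.108, both log2). The log2 fold change of d10 against d7 was 0.47 without Lean d10 replicate 1.

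In DIO callus, Fn1 was at 1610.4, 1912 and 1813 CPM on d3, 5004, 5042 and 4802 CPM on d5 and 7052, 10689 and 9095 CPM on d7, with no overlap between these days. It was at 1916, 2821 and 2768 CPM on d10, 1375, 898 and 1701 CPM on d14 and 623, 996 and 650.3 CPM on d21. The mean on d7 was 11.8 times that on d21. Fn1 rose from d3 to d5 (log2 fold change 1.48 ± 0.26 SE, adjusted p = 0.00678), although the adjusted p was 0.0505 without DIO d3 replicate 1. The step to d7 did not pass (log2 fold change 0.85 ± 0.26 SE, adjusted p = 0.156). From d7 to d10 Fn1 fell (log2 fold change -1.84 ± 0.27 SE, adjusted p = 0.000182), and every d10 mouse was below every d7 mouse. The difference of d14 from d10 did not pass (log2 fold change -0.92 ± 0.26 SE, adjusted p = 0.0954), though it did without DIO d14 replicate 3 (-1.14, adjusted p = 0.0407). From d14 to d21 Fn1 fell again (log2 fold change -0.81 ± 0.26 SE, adjusted p = 0.0368), with d14 replicate 2 inside the d21 range. That call was lost without DIO d14 replicate 1 (adjusted p = 0.0915), DIO d14 replicate 3 (0.163), DIO d21 replicate 1 (0.149) or DIO d21 replicate 3 (0.112), and in the fit of all 30 libraries (0.0963).

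The chondrocyte marker sum moved with Fn1. In DIO callus it was 537 to 1557 CPM on d3, 8054 to 14979 CPM on d5, 16083 to 36219.6 CPM on d7 and 2502 to 6091 CPM on d10, and in Lean callus it was 4112 to 14539 CPM on d7 and 11092 to 58969 CPM on d10. Over the 30 libraries, Fn1 and the mean log2 level of the 8 chondrocyte markers had an r of 0.94, and 0.77 once group means were subtracted. Lean d10 replicate 1 had the highest Fn1 level and the highest chondrocyte sum of all libraries, and the r without it is not given here. None of the 8 markers was at 0 throughout any group. Within DIO d7, however, replicate 2 had the highest Fn1 (10689 CPM) and the lowest chondrocyte sum. The part of chondrocyte number in the Fn1 course was not tested. The genes most like Fn1 among 14800 genes were Kcna6 (r = 0.97), which encodes a potassium channel, and Trpv4 (r = 0.97), which encodes a calcium channel of chondrocytes.

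Tenascin-W, encoded by Tnn (ENSMUSG00000026725, chr1:160085029-160153580, minus strand), is a glycoprotein of the periosteum and of sites of bone formation. In Lean callus it was at 289, 168 and 213 CPM on d3, 147, 279 and 388 CPM on d5, 181, 206 and 276 CPM on d7 and 306, 116 and 223 CPM on d10. The ranges of these 4 days overlapped, and no difference between Lean days was found (adjusted p = 0.854). In DIO callus Tnn was at 177, 254 and 427 CPM on d3, 412, 438 and 461 CPM on d5 and 459.8, 768 and 412 CPM on d7, followed by 138, 121 and 119.8 CPM on d10. It was at 64.1, 53.9 and 81.9 CPM on d14 and 21.7, 64.4 and 38.1 CPM on d21. Tnn fell from d7 to d10 (log2 fold change -2.11 ± 0.35 SE, adjusted p = 0.000622), the largest decrease of the 8 members at this step, with all d10 mice below all d7 mice. The mean on d7 was 13.2 times that on d21, and the highest mean was 10.5 times that on d21 without DIO d7 replicate 2. The differences of d14 from d10 (adjusted p = 0.176) and of d21 from d14 (adjusted p = 0.164) did not pass by themselves.

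Postn (ENSMUSG00000027750, chr3:54361109-54391037, plus strand) encodes periostin, a matricellular protein of periosteum and fibrous tissue that binds collagen I and integrins. Lean libraries had 1473, 1019 and 1445 CPM on d3, 1696, 1806 and 1750.5 CPM on d5, 1044, 1150.2 and 1494 CPM on d7 and 855, 816 and 1374 CPM on d10. The d5 mice lay above all mice of d3, d7 and d10, but the edgeR test over Lean days did not pass (adjusted p = 0.109). It passed without Lean d10 replicate 3 (adjusted p = 0.0331), with DESeq2 (0.0307) and with the replicate number as a block (0.0488). DIO libraries had 1332, 1421 and 1887 CPM on d3, 1950.3, 2679 and 2429 CPM on d5 and 1784, 4292 and 1274 CPM on d7. On d7, replicate 2 was far above both other mice, so that the group mean of 2450.2 ± 1616 CPM (SD, n = 3) rested on it and was 1529 CPM without it. From there the levels were 871, 988 and 1027 CPM on d10, 573, 562 and 618 CPM on d14 and 235, 368 and 357 CPM on d21, 3 days whose ranges did not overlap. Postn fell from d7 to d10 (log2 fold change -1.35 ± 0.33 SE, adjusted p = 0.0105); without DIO d7 replicate 2 the log2 fold change was -0.67 and the adjusted p 0.0865. Its difference of d21 from d14 did not pass (log2 fold change -0.87 ± 0.33 SE, adjusted p = 0.0687), but did without DIO d7 replicate 2 (adjusted p = 0.0102) or DIO d7 replicate 3 (0.0318).

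Genes of fibrillar matrix resembled both. Col3a1, the collagen III gene of early fibrous tissue, was the second most alike gene of Postn (r = 0.95) and of Tnn (r = 0.96), after Cnn3 for Postn (0.96), which encodes an actin-binding calponin, and Aebp1 for Tnn (0.97), which encodes a secreted collagen-binding protein. The summed tendon and fibrous tissue markers (6 genes, none at 0 throughout any group) were at 1777 to 1821 CPM in DIO d5, 2097 to 3001 CPM in DIO d7, 690.1 to 844 CPM in DIO d10, 418 to 466 CPM in DIO d14 and 137 to 552 CPM in DIO d21. The mean log2 level of these markers had an r over 30 libraries of 0.87 with Postn and 0.85 with Tnn, and with group means subtracted 0.36 and 0.26. The part of these cells in the courses of Postn and Tnn was not tested.

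The thrombospondins are trimeric or pentameric glycoproteins of which Thbs1 and Thbs2 bind CD47 and CD36 and restrain vessel growth, and Thbs4 is found in tendon and muscle. Thbs2 (ENSMUSG00000023885, chr17:14665500-14694235, minus strand) was at 237, 159.9 and 208 CPM in Lean d3, 403, 413 and 446 CPM in Lean d5, 349.9, 355 and 439 CPM in Lean d7 and 394, 286 and 403 CPM in Lean d10. All d5 mice were above all d3 mice, and Thbs2 was the only member that edgeR called higher between successive Lean days (log2 fold change 1.09 ± 0.18 SE, adjusted p = 0.0265). The call was lost without any 1 of Lean d3 replicates 1 and 2, Lean d5 replicates 1, 2 and 3 and Lean d7 replicates 1 and 2, with adjusted p from 0.0518 to 0.154 and log2 fold changes from 0.94 to 1.23. In DIO callus Thbs2 was at 262, 268 and 249.9 CPM on d3, 351, 449.5 and 414 CPM on d5 and 400.3, 693 and 347 CPM on d7, then at 251, 309.9 and 297 CPM on d10. It was at 201, 156 and 187 CPM on d14 and 93.7, 181 and 87.5 CPM on d21. The DIO course as a whole passed (adjusted p = 6.85e-05). The difference of d10 from d7 did not (log2 fold change -0.75 ± 0.26 SE, adjusted p = 0.0689), though all d10 mice were below all d7 mice; it passed without DIO d7 replicate 3 (adjusted p = 0.0286) or DIO d21 replicate 2 (0.0255), and was -0.39 without DIO d7 replicate 2.

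Thbs1 (ENSMUSG00000040152, chr2:118111876-118127133, plus strand), whose product is stored in platelets and can activate latent TGF-beta, had the smallest ratio of highest to lowest DIO mean among the members of the early course, 2.65 times. Its Lean levels lay between 215 and 440.3 CPM over the 12 libraries, with no difference between days (adjusted p = 0.271). In DIO callus it was at 313, 338 and 385 CPM on d5, 610.0, 420.1 and 429 CPM on d7, 234, 191 and 165 CPM on d10 and 229.8, 159 and 163 CPM on d14. On d21, with 320.2, 295 and 176 CPM, 2 of 3 mice were above all d14 mice, but the difference did not pass (log2 fold change 0.52 ± 0.24 SE, adjusted p = 0.129), except without DIO d21 replicate 3 (0.74, adjusted p = 0.0371). Thbs1 fell from d7 to d10 (log2 fold change -1.31 ± 0.24 SE, adjusted p = 0.00143), with no overlap between the days. The mean log2 level of the platelet and megakaryocyte markers had an r of -0.00 with Thbs1 over the 30 libraries. Their sum was 82.0 to 299 CPM in DIO d7, 147 to 227 CPM in DIO d10 and 456 to 935 CPM in Lean d3.

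Thbs4 (ENSMUSG00000021702, chr13:92751590-92794818, minus strand) had the largest SD relative to its mean in any group, 59.4 ± 67.2 CPM (SD, n = 3) in DIO d21. DIO libraries had 551, 164 and 393 CPM on d3, 297, 649.9 and 209 CPM on d7 and 10.7, 136 and 31.4 CPM on d21. On d21 the highest mouse, replicate 2, was also the mouse with the highest muscle and tendon marker sums (11372 and 552 CPM). The DIO course passed (adjusted p = 0.00717), as did the Lean course (adjusted p = 0.00468; 0.18 in the fit of all 30 libraries). Lean levels were 279, 276 and 183 CPM on d5, 142, 190.0 and 119 CPM on d7 and 71.3, 93.2 and 91.1 CPM on d10, all d10 mice being below all d7 mice. The step itself did not pass in edgeR (log2 fold change -0.80 ± 0.21 SE, adjusted p = 0.0622). It passed with DESeq2 (adjusted p = 0.0118), with no filter but 1 count (0.0476) and with the replicate number as a block (0.0378). The step of DIO d10 from d7 did not pass (log2 fold change -1.56 ± 0.67 SE, adjusted p = 0.142), except without DIO d21 replicate 2 (adjusted p = 0.0486). Its log2 fold change was -0.95 without DIO d7 replicate 2. With group means subtracted, Thbs4 had an r of 0.80 with the tendon and fibrous tissue markers and 0.67 with the skeletal muscle markers, and their part in its level was not tested. Cilp, a gene of cartilage and tendon matrix, was most alike (r = 0.95).

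Sparc (ENSMUSG00000018593, chr11:55394500-55423183, minus strand) followed the later course. Lean callus had 8566, 7899 and 11645 CPM on d3, 10734, 11016 and 19574 CPM on d5, 17381, 17489.6 and 16299 CPM on d7 and 39049.8, 28006 and 34859 CPM on d10. Every d10 mouse was above every mouse of the earlier days, and the Lean course passed (adjusted p = 0.00531). The difference of d10 from d7 alone did not pass in edgeR (log2 fold change 1.01 ± 0.28 SE, adjusted p = 0.0687). It passed without Lean d5 replicate 3 (adjusted p = 0.0498), with DESeq2 (0.00233), with the replicate number as a block (0.0428) and in the fit of all 30 libraries (0.0310). DIO callus had 6529, 10051 and 10088 CPM on d3, 19299.8, 13206 and 15372 CPM on d5 and 18224, 14402 and 15843 CPM on d7, then 23069, 25608 and 23795 CPM on d10. It had 22065, 15356 and 28198 CPM on d14 and 8449.7, 15191 and 10029 CPM on d21, with all d21 mice below all d14 mice. Sparc fell from d14 to d21 (log2 fold change -0.96 ± 0.29 SE, adjusted p = 0.0288), a call that was lost without DIO d14 replicate 1 (adjusted p = 0.0681), DIO d14 replicate 3 (0.118), DIO d21 replicate 1 (0.133) or DIO d21 replicate 3 (0.083).

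Tnc (ENSMUSG00000028364, chr4:63959785-64047015, minus strand) encodes tenascin-C, which modulates cell adhesion to fibronectin and binds the integrin of Itga9. It was at 1426, 875 and 1078 CPM in Lean d3, 837, 1031 and 1489 CPM in Lean d5, 1392, 1415 and 1240.0 CPM in Lean d7 and 2007, 1962 and 2648 CPM in Lean d10. The d10 mice were above all earlier Lean mice, and the Lean course passed (adjusted p = 0.0276). That call was lost without Lean d3 replicate 2 (adjusted p = 0.0509), Lean d5 replicate 2 (0.0567), Lean d10 replicate 2 (0.0512) or Lean d10 replicate 3 (0.0879). In DIO callus Tnc was at 1551, 1699 and 913 CPM on d7, 2367, 2085 and 2729.9 CPM on d10, 2015, 1483 and 2778 CPM on d14 and 1281, 1300.1 and 1263 CPM on d21. Its d10 mice lay above all d7 mice, while Fn1, Postn, Tnn and Thbs1 fell at the same step, but the difference did not pass (log2 fold change 0.79 ± 0.28 SE, adjusted p = 0.0706); it did without DIO d3 replicate 1 (adjusted p = 0.0475). The difference of d21 from d14 (log2 fold change -0.71 ± 0.28 SE, adjusted p = 0.0786) passed without DIO d14 replicate 2 (adjusted p = 0.0364).

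Osteoblast markers moved with both late members: over the 30 libraries their mean log2 level had an r of 0.93 with Sparc and 0.76 with Tnc, and with group means subtracted 0.88 and 0.48. The summed osteoblast markers (7 genes, none at 0 throughout any group) were at 34836 to 43654 CPM in Lean d7, 42832 to 70212 CPM in Lean d10, 39562 to 47172 CPM in DIO d10, 23779.5 to 47099 CPM in DIO d14 and 14309 to 26259.9 CPM in DIO d21. The part of osteoblast number was not tested. The genes most like Sparc were Sdc2 (r = 0.95), a syndecan gene, and Podnl1 (r = 0.94). Among those most like Tnc was Ccn4 (r = 0.86), a matricellular gene of the WNT response.

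**Figure D3:**
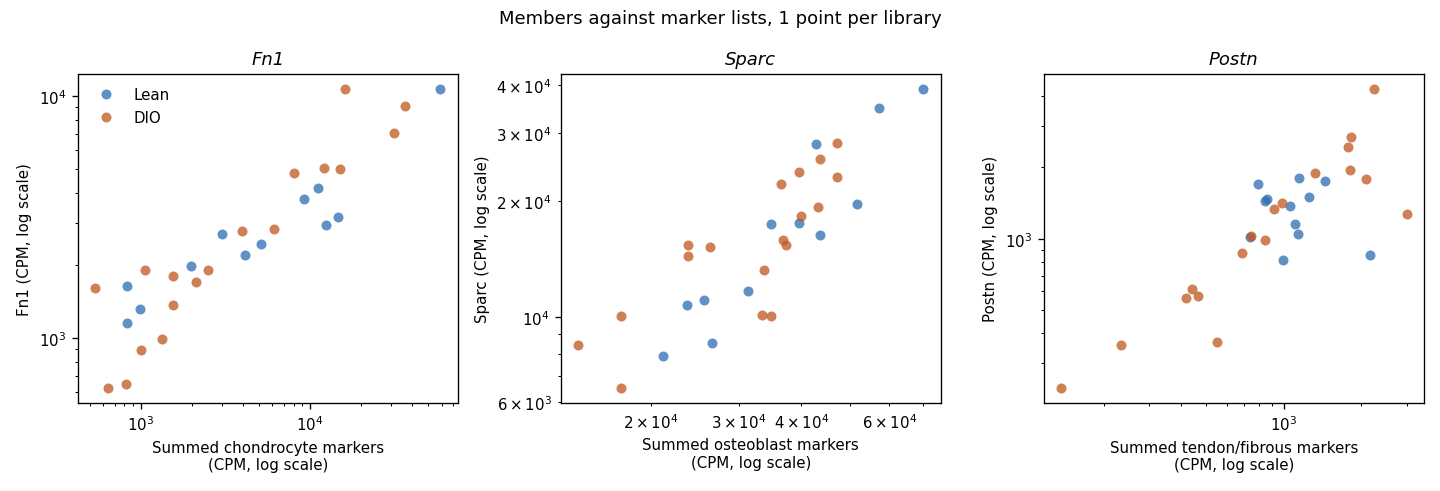
Level of Fn1, Sparc and Postn (CPM, log axis) against the summed markers of chondrocytes, osteoblasts and tendon and fibrous tissue (CPM, log axis), with 1 point per library (Lean blue, DIO orange). Fn1 ranges over chondrocyte sums from 537 to 58969 CPM, and the points of Sparc run upward along the osteoblast sum in both diets.

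By step, more members were called in DIO callus at d10 against d7 than at any other step. Among the 8 members, 5 differed between Lean days (Fn1, Sparc, Tnc, Thbs2 and Thbs4; 19% of the 16471 genes tested did), a count that was 3 without Lean d3 replicate 2, where Tnc and Fn1 (adjusted p = 0.0634) were lost. All 8 differed between DIO days (59.1% of 16995 genes), 7 of 8 without DIO d10 replicate 3 (Tnc, adjusted p = 0.0752). From d3 to d5, 1 member rose in Lean callus (Thbs2; 0.443% of genes rose) and 1 in DIO callus (Fn1; 1.39% rose). From d5 to d7, edgeR called 0 members in Lean callus, where 0% of genes were called. There, 2 members and 926 genes had an unadjusted p under 0.05, and DESeq2 called 0 members and 37 genes. In DIO callus at this step, edgeR called 0 members (0.0177% of genes). An unadjusted p under 0.05 was reached by 1 member and 2411 genes, and DESeq2 called 1 member (Fn1) and 346 genes.

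From d7 to d10, 4 members fell in DIO callus (Fn1, Postn, Tnn and Thbs1), where 7.01% of genes fell. The median log2 fold change of the 8 members was -1.33 (-0.81 without DIO d7 replicate 2) against -0.02 for all genes tested. As the members were chosen with earlier results of these data known, these medians describe them and were not tested. The chondrocyte and the tendon and fibrous tissue sums given above were lower on d10 without overlap. The macrophage sum was 751 to 777 CPM on d7 and 1333 to 1487 CPM on d10, the skeletal muscle sum 6030.0 to 16307 and 16711 to 22702 CPM and the adipocyte sum 5.88 to 12.4 and 27.7 to 90.4 CPM, all without overlap. The part of these cells was not tested. In Lean callus edgeR called 0 members at this step, where 2.73% of genes were called. There, 4 members and 4275 genes had an unadjusted p under 0.05, and DESeq2 called 4 members and 1827 genes. The members called by DESeq2 were Fn1, Tnc and Sparc with positive and Thbs4 with negative fold changes. From d10 to d14, 0 members passed in DIO callus, where 0.759% of genes passed. An unadjusted p under 0.05 was reached by 4 members and 3006 genes, and DESeq2 called 1 member (Fn1) and 552 genes. All 8 fold changes of the members were negative (median -0.64, all genes -0.00). From d14 to d21, 2 members fell (Fn1 and Sparc), where 9.03% of genes fell. The neutrophil marker sum (6 genes, none at 0 throughout any group) was 2316 to 6542 CPM on d14 and 9636 to 22872 CPM on d21, and the adipocyte sum was 112 to 165 and 170.4 to 235 CPM, both without overlap, and their part was not tested. The count of members called count was 0 without DIO d14 replicate 1, DIO d14 replicate 3 or DIO d21 replicate 1, and 1 (Thbs1, higher) without DIO d21 replicate 3. Without DIO d21 replicate 2, the mouse with the highest muscle marker sum of its group, it was 5, since Thbs2 (-1.0, adjusted p = 0.0075), Thbs4 (-2.02, 0.0217) and Tnn (-1.16, 0.0223) fell as well.

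**Figure D4:**
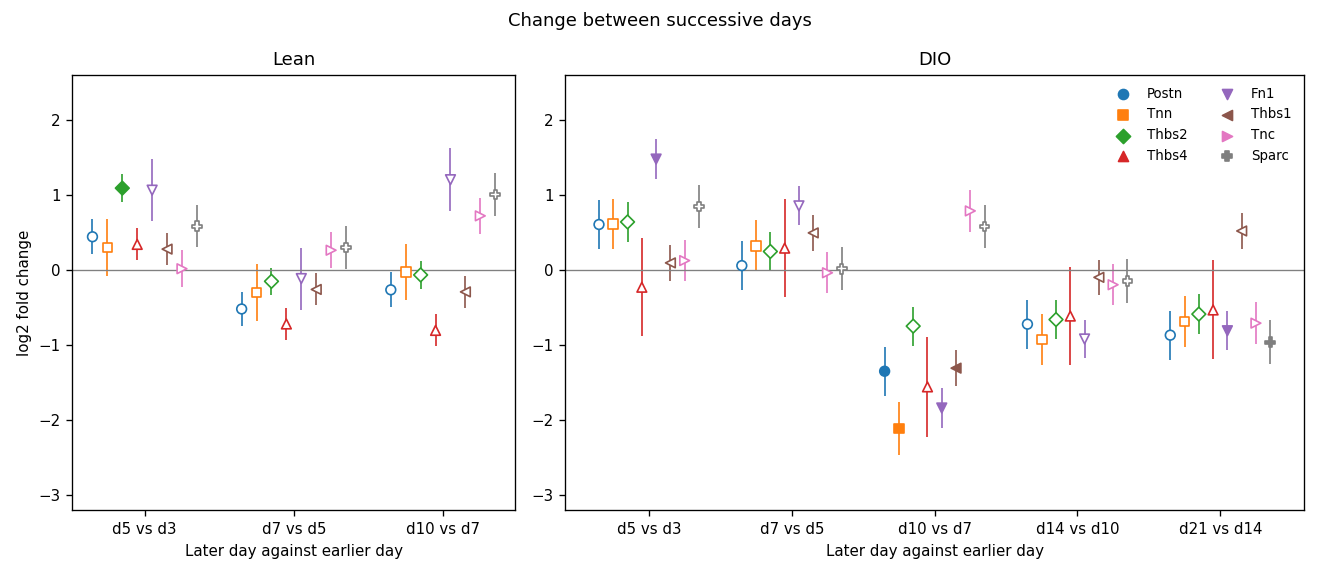
Log2 fold change of each member between successive days, with 1 SE, in Lean (left) and DIO callus (right), filled symbols marking an edgeR adjusted p under 0.05. At d10 against d7 in DIO callus Fn1, Postn, Tnn and Thbs1 lie between -2.11 and -1.31, while Tnc and Sparc are above 0 and open.

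The comparison of diets within a day addressed whether obesity alters the callus at the same time after fracture. On d3, 0 of 8 members differed (0% of 15772 genes by edgeR; 2 members and 2374 genes at an unadjusted p under 0.05, and 0 members and 728 genes by DESeq2). On d5, 0 of 8 passed, where 1.08% of 15722 genes passed. An unadjusted p under 0.05 was reached by 2 members and 2913 genes, and DESeq2 called 1 member (Fn1) and 1150 genes. All DIO mice were above all Lean mice for Fn1, Postn and Tnn, but the share of all genes without overlap is not given here. The Fn1 difference on d5 was 0.82 ± 0.23 SE on the log2 scale (adjusted p = 0.128), and it was 1.09 with an adjusted p of 0.0169 without Lean d5 replicate 3, the Lean mouse with the highest chondrocyte sum that day (9242 CPM). The tendon and fibrous tissue sum was higher in DIO callus without overlap (1777 to 1821 against 792 to 1443 CPM). The macrophage (1073 to 1326 against 1473 to 2060 CPM), platelet (92.1 to 164 against 182 to 384 CPM) and adipocyte sums (1.61 to 3.78 against 8.25 to 28.2 CPM) were lower without overlap. The chondrocyte sum overlapped (8054 to 14979 and 1984 to 9242 CPM). The part of these cells was not tested.

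On d7, 2 of 8 members were higher in DIO callus, Fn1 and Tnn, where 1.4% of 15753 genes were higher. The Fn1 mean was 8945 ± 1823 CPM (SD, n = 3) in DIO and 2614 ± 507 CPM (SD, n = 3) in Lean callus, a ratio of 3.42, and every DIO mouse was above every Lean mouse (log2 fold change 1.78 ± 0.26 SE, adjusted p = 0.0154). The call was lost without Lean d7 replicate 1 (1.74, adjusted p = 0.0654) or Lean d7 replicate 2 (1.67, adjusted p = 0.0845). The Tnn mean was 547 ± 193 CPM (SD, n = 3) against 221 ± 49.1 CPM (SD, n = 3), a ratio of 2.48, again with no overlap (log2 fold change 1.32 ± 0.27 SE, adjusted p = 0.0406). Its call held in 1 of 6 fits that left out a mouse and was lost without Lean d7 replicate 1 (adjusted p = 0.14), replicate 2 (0.189) or replicate 3 (0.0556) and without DIO d7 replicate 1 (0.0618) or replicate 2 (0.0597), with log2 fold changes from 1.01 to 1.52, and in the fit of all 30 libraries (1.31, adjusted p = 0.0535). Thbs4 did not overlap either but did not pass in edgeR (log2 fold change 1.37 ± 0.37 SE, adjusted p = 0.0984). It passed without DIO d7 replicate 3 (adjusted p = 0.0286), with DESeq2 (0.00216), with no filter but 1 count (0.0125) and with the replicate number as a block (0.0310). Its log2 fold change was 0.78 without DIO d7 replicate 2. Postn had a difference of 1.00 that did not pass (adjusted p = 0.247) and was 0.34 without DIO d7 replicate 2.

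The chondrocyte marker sum on d7 was 16083 to 36219.6 CPM in DIO and 4112 to 14539 CPM in Lean callus, and 3 of 8 chondrocyte markers were higher in DIO callus. The tendon and fibrous tissue sum was 2097 to 3001 CPM against 1103 to 1258 CPM, and 1 of 6 of its markers was higher, whereas 3 of 6 macrophage markers were lower (751 to 777 CPM against 975 to 1618 CPM). The endothelial sum (326 to 429 CPM against 435 to 491 CPM) and the adipocyte sum (5.88 to 12.4 CPM against 22.8 to 33.4 CPM) were lower without overlap. The part of these cells in the Fn1 and Tnn differences was not tested. Sparc and Tnc, the late members, had log2 differences of -0.07 ± 0.23 and 0.05 ± 0.25 SE on d7, and the values of both diets overlapped.

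On d10, 0 of 8 members differed (0% of 15341 genes by edgeR; 3 members and 1082 genes at an unadjusted p under 0.05, and 0 members and 47 genes by DESeq2). The order of the diets was the other way for Fn1, with all DIO mice (1916, 2821 and 2768 CPM) below all Lean mice (10751, 2940.0 and 4182 CPM; log2 fold change -1.24 ± 0.46 SE, adjusted p = 0.686), a difference that rested on Lean d10 replicate 1 and was -0.51 without it (adjusted p = 0.934). Sparc was also without overlap, with a DIO range of 23069 to 25608 CPM and a Lean range of 28006 to 39049.8 CPM (log2 fold change -0.48 ± 0.26 SE, adjusted p = 0.688). Thbs4 was without overlap in the opposite direction, with DIO mice higher (log2 fold change 0.63 ± 0.18 SE, adjusted p = 0.686). As on d5, the share of all genes without overlap is not given here. The chondrocyte sum (2502 to 6091 CPM in DIO, 11092 to 58969 CPM in Lean) and the tendon and fibrous tissue sum (690.1 to 844 and 990 to 2164 CPM) did not overlap. Neither did the skeletal muscle sum (16711 to 22702 and 907 to 12895 CPM) or the adipocyte sum (27.7 to 90.4 and 1.63 to 16.7 CPM). The part of these cells in the d10 differences was not tested.

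**Figure D5:**
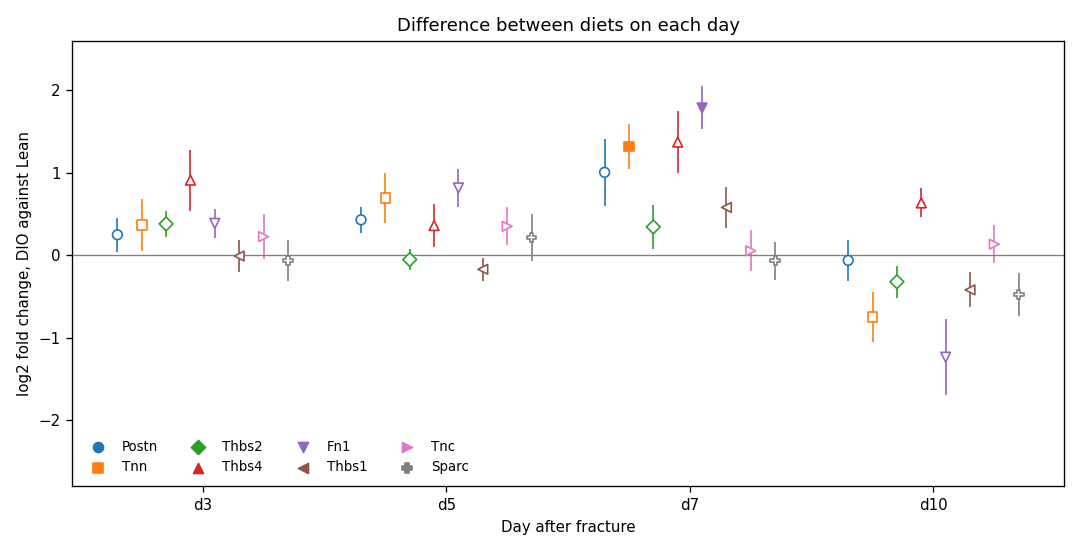
Log2 fold change of DIO against Lean callus for each member on d3, d5, d7 and d10, with 1 SE, filled symbols marking an edgeR adjusted p under 0.05. Fn1 (1.78) and Tnn (1.32) are filled on d7, and the Fn1 symbol lies below 0 (-1.24) and open on d10.

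A joint fit of both diets over their 4 shared days, 24 libraries in all, tested whether the diet difference changed with the day. Over all 4 days, 1 of 8 members passed, Fn1 (adjusted p = 0.0233; 1.65% of 17057 genes passed). The Fn1 call was lost without Lean d7 replicate 2 (adjusted p = 0.0608), DIO d10 replicate 1 (0.0849), DIO d10 replicate 2 (0.0619) or DIO d10 replicate 3 (0.0544). Tnn did not pass (adjusted p = 0.105), but did without Lean d10 replicate 2 (0.0361), with DESeq2 (0.0114) and with no filter but 1 count (0.0447). Between d7 and d10, the diet difference fell for 2 members, Fn1 and Tnn, where it fell for 3.37% of genes. For Fn1 the change was -3.03 ± 0.48 SE on the log2 scale (adjusted p = 0.00269), from a difference of 1.78 on d7 to -1.24 on d10. It passed in all 24 fits that left out a mouse, and was -2.28 without Lean d10 replicate 1.

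For Tnn the diet difference fell by 2.08 on the log2 scale (± 0.51 SE, adjusted p = 0.0231), and this call was lost without Lean d7 replicate 1 (adjusted p = 0.0561), Lean d7 replicate 2 (0.0669), Lean d10 replicate 1 (0.0894), DIO d7 replicate 2 (0.0717) or DIO d10 replicate 1 (0.0523). Thbs1 had a change of -1.0 ± 0.31 SE that did not pass (adjusted p = 0.0593). It passed without Lean d7 replicate 3 (0.0278), Lean d10 replicate 2 (0.0332) or DIO d7 replicate 3 (0.0437), and with DESeq2 (0.0233). Postn did not pass either (-1.07 ± 0.44 SE, adjusted p = 0.15), except without DIO d7 replicate 3 (-1.38, 0.0376), where 4 members passed. For Tnc and Sparc it was 0.08 ± 0.37 and -0.41 ± 0.35 SE. Of the 8 chondrocyte markers, 6 had a diet difference that fell at this step, where it fell for 3.37% of all genes.

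Other genes of the pathway were read from 4 lists, also chosen with earlier results of these data known. Of 24 other matricellular glycoproteins, 23 were tested in each fit. From d7 to d10 in DIO callus 13 fell and 1 rose (median -0.99 on the log2 scale, all genes -0.02), where 7.01% of all genes fell and 6.01% rose. They included Tgfbi (log2 fold change -2.05 ± 0.22 SE, adjusted p = 1.08e-05), an integrin-binding relative of periostin, and Smoc1 (log2 fold change -2.40 ± 0.33 SE, adjusted p = 0.000133), a relative of SPARC. From d3 to d5, 3 rose in DIO callus (1.39% of all genes rose), among them Comp (log2 fold change 2.94 ± 0.53 SE, adjusted p = 0.00781), the cartilage thrombospondin. On d7, 5 were higher in DIO than in Lean callus, where 1.4% of all genes were. Among them were Mfge8 (log2 fold change 1.29 ± 0.20 SE, adjusted p = 0.0166), a bridge from dying cells to phagocytes, and Thbs3 (log2 fold change 1.09 ± 0.20 SE, adjusted p = 0.0285), a thrombospondin. Between d7 and d10 the diet difference fell for 11 of 23 (3.37% of all genes), with Mfge8 at -2.96 and Smoc2 at -2.24 on the log2 scale (adjusted p = 0.00269 and 0.00334).

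Of 20 partners in matrix assembly and crosslinking, 17 were tested, and 10 fell from d7 to d10 in DIO callus (median -0.91), where 7.01% of all genes fell. Loxl2, which crosslinks collagen, fell by 1.34 on the log2 scale, and Fbn2, a microfibril gene, by 2.28 (adjusted p = 0.000279 for both). From d14 to d21, 7 fell (9.03% of all genes fell), among them Pcolce (log2 fold change -1.17 ± 0.28 SE, adjusted p = 0.0103), an enhancer of collagen processing. On d7, 2 were higher in DIO callus, where 1.4% of all genes were. They were Loxl2 (log2 fold change 1.14 ± 0.20 SE, adjusted p = 0.0258) and F13a1 (log2 fold change 1.16 ± 0.25 SE, adjusted p = 0.0461), the latter encoding the transglutaminase that crosslinks fibrin and fibronectin. In Lean callus, Fbn2 rose from d3 to d5 (log2 fold change 1.56 ± 0.25 SE, adjusted p = 0.0265) and fell from d7 to d10 (log2 fold change -1.21 ± 0.25 SE, adjusted p = 0.0365).

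Of 16 genes of myofibroblasts and the TGF-beta response, all were tested, and 5 fell and 1 rose from d7 to d10 in DIO callus (median -0.44), where 7.01% of all genes fell and 6.01% rose. Ltbp2, a latent TGF-beta binding protein gene, fell (log2 fold change -1.78 ± 0.29 SE, adjusted p = 0.000474), and the receptor gene Tgfbr1 rose (log2 fold change 1.18 ± 0.19 SE, adjusted p = 0.000533). The diet difference fell from d7 to d10 for 3 (3.37% of all genes), among them Ltbp2 at -1.97 on the log2 scale (adjusted p = 0.00653).

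The receptors for these glycoproteins moved in both directions. Of 18 integrins and other receptors, 4 rose and 1 fell from d7 to d10 in DIO callus, where 6.01% of all genes rose and 7.01% fell. The median log2 fold change of the list was -0.01 against -1.33 for the members. Itgb3, the beta subunit of the vitronectin receptor of osteoclasts and platelets, rose (log2 fold change 1.92 ± 0.31 SE, adjusted p = 0.000538), and so did Itga9 (log2 fold change 1.11 ± 0.18 SE, adjusted p = 0.000585), a subunit of a tenascin-C receptor. From d14 to d21, 2 rose and 4 fell, where 10.6% of all genes rose and 9.03% fell; Cd47, a thrombospondin receptor, rose (log2 fold change 1.22 ± 0.16 SE, adjusted p = 0.000214), and so did Itga4 (log2 fold change 1.18 ± 0.26 SE, adjusted p = 0.00558), a leukocyte integrin subunit that binds fibronectin. On d7, 1 of 18 differed between diets and was higher in DIO callus, where 1.4% of all genes were higher. It was Sdc4, a coreceptor for fibronectin (log2 fold change 1.04 ± 0.20 SE, adjusted p = 0.0315). Its diet difference then fell from d7 to d10 by 2.13 on the log2 scale (adjusted p = 0.00782).

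Levels of each member were ordered over the 10 groups. Neighbours are called separated where the ranges of their mice did not overlap. This describes the mice and is not a test, and the share of all genes separated in this way is not given here. For Fn1, DIO d7 (8945 CPM) and Lean d10 (5958 CPM) overlapped at the top, and DIO d14 and DIO d21 overlapped at the bottom; the neighbours separated by their spread were DIO d5 from Lean d5 and DIO d10 from DIO d3. For Sparc, Lean d10 (33972 CPM) was separated from DIO d10 (24158 CPM), although the edgeR test of this diet difference did not pass, and no other neighbours were. For Postn, DIO d5 was separated from Lean d5, DIO d10 from DIO d14 and DIO d14 from DIO d21. For Tnn, DIO d10 was separated from DIO d14 (126 and 66.6 CPM), and for Thbs2, DIO d3 from Lean d3 (259.8 and 201 CPM). No member passed between diets on d3 in edgeR. For Tnc, Thbs1 and Thbs4, every pair of neighbours overlapped, while the highest and the lowest group of each did not (for Tnc DIO d10 at 2394 and Lean d5 at 1119 CPM).

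The libraries were made with a stranded kit, but the strand setting of the counting is not given in the sources used here. Tnc shares 176 exon bases (2.26% of its exon length) with 8030451A03Rik on the opposite strand, Fn1 shares 292 (2.50%) with Apol7d and Thbs1 shares 208 (3.42%) with Gm29233, and counts there could be split. No member had a near-identical stretch in any gene other than these.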

How the data were processed

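RNA-seq libraries from the fracture callus of 12 Lean and 18 DIO mice were made by the authors with a stranded poly(A) kit, 1 callus per library. Per the paper's methods and the labels, the authors used bcl2fastq, BBDuk, HISAT2 2.1.0 on GRCm38 and HTSeq, and deposited raw read counts per gene without normalization; the HTSeq strand option is not given in the sources used here.

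From these counts, TMM factors, filterByExpr and edgeR quasi-likelihood F-tests (two-sided; edgeR 4.0.16 in R 4.3.3) were computed, with Benjamini-Hochberg adjustment over all genes tested and a threshold of 0.05. Lean days were fitted in 12 libraries, DIO days in 18, diets within a day in 6, and the change of the diet difference in 24. Fold changes are on the log2 scale with their SE. Groups came from the sample labels. Symbols, positions and exon lengths came from GENCODE M21 on GRCm38, in which 42548 of 43629 identifiers were found, and a prior count of 2 entered log2 CPM for correlations. Group means and SDs rest on 3 mice per group, and their precision is set by these mice rather than by depth. The SE and p of a test drew on the spread within groups over all libraries of its fit.

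The members and lists (4 lists of pathway genes and 9 of cell type markers) were chosen with earlier results of these data known. All 8 members are named. A few items, promoter sequences among them, are not reported here. From each pathway list up to 3 genes, ranked by adjusted p, could be named in the tests over all days of 1 diet and up to 2 in each other comparison, and for each member its 2 most alike genes with a mean of at least 1 CPM. Col1a1 is in both the osteoblast and the crosslinking list.

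Replicate numbers mark different mice. For Lean d7 against d5, same-numbered libraries deviated together (r = 0.277, 0.204 and 0.240), and 0 members were called with and without the replicate number as a block. Alternatives were RLE factors, DESeq2 1.42.0, no filter but 1 count, the replicate block, all 30 libraries in 1 fit, CPM on the total count and each mouse left out. No pair of libraries of a group was a duplicate (chi-square per degree of freedom 12.8 to 148). Figures used matplotlib.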

Additional observations from a re-analysis of the deposited data

Results flagged for a closer look

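For 2 members, the difference between DIO and Lean callus itself changed between days, as tested in 1 edgeR fit of 24 libraries. The diet difference of Fn1 varied over d3 to d10 (adjusted p = 0.0233), and from d7 to d10 it changed by -3.03 on the log2 scale (adjusted p = 0.00269). That of Tnn changed by -2.08 from d7 to d10 (adjusted p = 0.0231), a call that held in 19 of 24 fits that left out a mouse. Over d3 to d10 as a whole, Tnn did not pass (adjusted p = 0.105). Groups of 3 mice were too small to test single mice as outlying.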

How the results depend on the processing

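With RLE factors, all 42 member values followed kept their direction and their side of the threshold, and none of the 42 reversed under any alternative; the 42 are the values called by edgeR or under a setting other than leaving out a mouse. DESeq2 brought 16 of the 42 past the threshold and removed 0. Members called by DESeq2 were 6 between Lean days (edgeR 5), 6 for DIO d10 against d7 (4), 3 for DIO against Lean on d7 (2), 3 for the change of the diet difference from d7 to d10 (2), 4 for Lean d10 against d7 (edgeR 0), 2 for DIO d5 against d3 (1), 1 for DIO d7 against d5 (0), 1 for DIO d14 against d10 (0), 4 for DIO d21 against d14 (2), 1 for DIO against Lean on d5 (0) and 2 for the change of the diet difference with day (1). With no filter but 1 count, 1 was called for Lean d10 against d7 and 2 for the change of the diet difference. With all 30 libraries in 1 fit, 2 were called for Lean d10 against d7 and 1 for DIO against Lean on d7; that fit lost 3 calls, of Thbs4 between Lean days, Fn1 for DIO d21 against d14 and Tnn on d7, and gained 4. The replicate block called 2 members for Lean d10 against d7 (0 without it) and changed the count by no more than 1 elsewhere. The labels state no link between same-numbered libraries. Outside Lean d7 against d5, the r of their deviations varied, as in Lean d5 against d3 (0.0793, 0.320 and 0.0368) and DIO d5 against d3 (-0.183, -0.101 and -0.0229).

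Over each mouse left out, members called ranged from 3 to 5 between Lean days, 0 to 1 for Lean d5 against d3, 0 to 1 for Lean d10 against d7, 7 to 8 between DIO days, 0 to 1 for DIO d5 against d3, 3 to 6 for DIO d10 against d7, 0 to 1 for DIO d14 against d10 and 0 to 5 for DIO d21 against d14. They ranged from 0 to 1 for DIO against Lean on d5, 0 to 3 on d7, 0 to 2 for the change of the diet difference with day and 1 to 4 for its change from d7 to d10. Of 672 such values of the 42, 39 lost and 15 gained a call, and 6 values of members outside the 42 gained one. Of 80 group levels, 77 moved by less than 1 SD with CPM on the total count.

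Over all genes, DESeq2 called 4847 between Lean days (edgeR 3132), 605 for Lean d5 against d3 (74), 1827 for Lean d10 against d7 (450), 575 for DIO d5 against d3 (285), 346 for DIO d7 against d5 (3), 552 for DIO d14 against d10 (129), 1150 and 944 for the diets on d5 and d7 (170 and 366), 1151 for the change of the diet difference (282) and 1496 for its change from d7 to d10 (865). Why the tools differed was not tested.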
